A study of Mus musculus with 6 samples.

Results

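The proximal tubule recovers most of the filtered phosphate, amino acids, sugars and bicarbonate and secretes organic anions and cations, and each of these tasks rests on membrane carriers. Carriers of the brush border bring solutes in from the filtrate, most of them driven by the sodium gradient, and carriers of the basolateral membrane pass them to or from the blood. Drug and urate transport by the organic anion and cation carriers is a known function of the same cells. The RNA of 36 such genes, 35 solute carriers and the water channel aquaporin-1, was followed here in kidneys of diabetic mice with and without atorvastatin, an inhibitor of cholesterol synthesis. They were taken by symbol from a list, all 36 were found among the 17684 genes of the expression table, and 35 passed a filter of at least 10 counts in at least 3 libraries.

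Kidney RNA came from 3 mice of the Db group and 3 mice of the Db + Ato10 group, sequenced as 1 library per mouse. All 6 were db/db mice, which lack a working leptin receptor and become obese and diabetic, and were 50 weeks old. The sample labels name the strain C57 BLKS/L, while the methods of the study name C57BLKS/J. The Db + Ato10 mice had received atorvastatin at 10 mg/kg per day of dosing for 40 weeks, and the Db mice normal saline over the same 40 weeks. By the study's methods the drug was given by gavage, on some days of each week and not on all. The general treatment field of the records names atorvastatin for all 6 mice, and the groups follow the field that tells saline from atorvastatin. No mice without diabetes were analysed here, so a difference is one between diabetic kidneys only. Libraries held 13134930, 11381678 and 12426051 counts in Db replicates 1 to 3 and 14578023, 14667909 and 13133241 in Db + Ato10 replicates 1 to 3. Levels are given as CPM, counts scaled to library size by TMM. The floor of detection, 3 counts, was 0.198 to 0.260 CPM, and this floor covers counting error only.

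Several features of the libraries bear on every value that follows. The study used male mice, but Db replicate 1 held 2 counts over the Y-linked genes Ddx3y, Eif2s3y, Kdm5d and Uty. The other libraries held between 1419 and 2116. Results for the carrier genes are therefore also given without Db replicate 1, while the other gene lists and the transcripts are given with it. Among kidney genes known to be higher in male mice, Kap was the most abundant per transcript length (TPM, scaled to transcript length and a common total) and stood at 2364 CPM in Db replicate 1 and between 602 and 873 CPM in the other 5 libraries. In the male list 5 of 6 genes and in the female list (Slc7a12, Prlr and Cyp2a4) 3 of 3 genes had a lower fitted level in the Db + Ato10 group, with 0 at an unadjusted p under 0.05. The Db + Ato10 libraries also differed from each other. Of 13679 tested genes, 40.9% lay below and 38.6% above every Db library in Db + Ato10 replicate 1, against 34.2% and 35.1% in replicate 2 and 24% and 23.5% in replicate 3.

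Markers of the labelled tissue were present. All 12 proximal tubule markers passed the filter, and the endocytic receptors Lrp2 and Cubn were counted in every library. Their summed level was 21664, 16099 and 19002 TPM in Db replicates 1 to 3 and 4300, 10466 and 17556 TPM in Db + Ato10 replicates 1 to 3. The 36 carriers made up 1.32%, 1.15% and 1.45% of all TPM in the Db libraries and 0.250%, 1.00% and 1.37% in the Db + Ato10 libraries. In whole kidney RNA, fewer proximal tubule cells and less carrier RNA per cell cannot be told apart.

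Carrier RNA was low in Db + Ato10 replicate 1 throughout, low for particular classes in replicate 2, and close to the Db level in replicate 3. In Db + Ato10 replicate 1 all 35 tested carriers lay below every Db library, beside 40.9% of all tested genes, and 0 lay above. In Db + Ato10 replicate 2 the count was 17 below and 2 above, beside 34.2% and 35.1% of all tested genes. In Db + Ato10 replicate 3 it was 2 below and 5 above, beside 24% and 23.5%. Set against the Db mean of each gene, the median carrier stood at 22.2%, 75.7% and 108% in Db + Ato10 replicates 1 to 3. The corresponding median of log2 CPM minus the Db mean was -2.14, -0.36 and 0.12, and it was 0.04, -0.26 and 0.23 in Db replicates 1 to 3. With a Db library removed from the reference, all 35 still lay below the remaining Db libraries in Db + Ato10 replicate 1, beside 43.9% to 45.3% of all genes, and the other counts moved. Without Db replicate 1, 18 lay below and 2 above in Db + Ato10 replicate 2 (39.7% and 40.4% of all genes), and 5 below and 9 above in replicate 3 (32.8% and 31.3%). Without Db replicate 2 these were 28 and 2 (39.9% and 40.9%), then 7 and 6 (34.1% and 34.4%). Without Db replicate 3 they were 17 and 6 (38.6% and 39.1%), then 6 and 16 (31.1% and 31.2%).

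The difference between the group means was negative for nearly every carrier and passed the test for none. The fitted log2 fold change (Db + Ato10 over Db) was below 0 for 34 of 35 carriers, beside 50.6% of all tested genes, with a median of -0.54 against -0.0063 over all tested genes. A call required a fold change over 1.5 and an adjusted p under 0.05, the criteria of the study's methods. By the quasi-likelihood test of edgeR, adjusted after Benjamini and Hochberg over all tested genes, 0 carriers were called, as were 0 genes in all (0%). DESeq2 called 0 carriers as well, beside 6.46% of all genes. At an unadjusted p under 0.05, edgeR counted 1 carrier lower, against 5.71% of all genes, and 0 higher, against 11.2%. DESeq2 and limma-voom each counted 3 lower at that level (8.57% of carriers), beside 6.24% and 6.69% of all genes. Every Db + Ato10 library lay below every Db library for 2 carriers, Slc7a8 and Slc9a3, beside 11.3% of all genes, and above for 0, beside 12%. Among these counts of called or separated carriers, only the unadjusted ones of DESeq2 and limma-voom exceeded the share of all genes, slightly and with 3 carriers each. The smallest p that an exact permutation test allows for 3 against 3 libraries is 0.1, and all p-values describe the spread between these 6 kidneys.

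A single library decided the outcome of the test. Without Db + Ato10 replicate 3, edgeR called 2.23% of 13517 genes lower and 5.96% higher, and 3 of 35 carriers were called, all lower, namely Slc34a3, Slc9a3 and Slc7a8. At an unadjusted p under 0.05, 12 carriers (34.3%) were then lower and 0 higher, beside 13.1% of all genes lower and 29.9% in either direction. Every remaining Db + Ato10 library then lay below every Db library for 17 carriers (48.6%), beside 24.9% of all genes. The median log2 fold change of the carriers was -1.01. Without Db + Ato10 replicate 1 it was -0.16, and 0 carriers were called. Without Db replicate 1 it was -0.45, again with 0 called and with 0 carriers at an unadjusted p under 0.05.

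**Figure D1:**
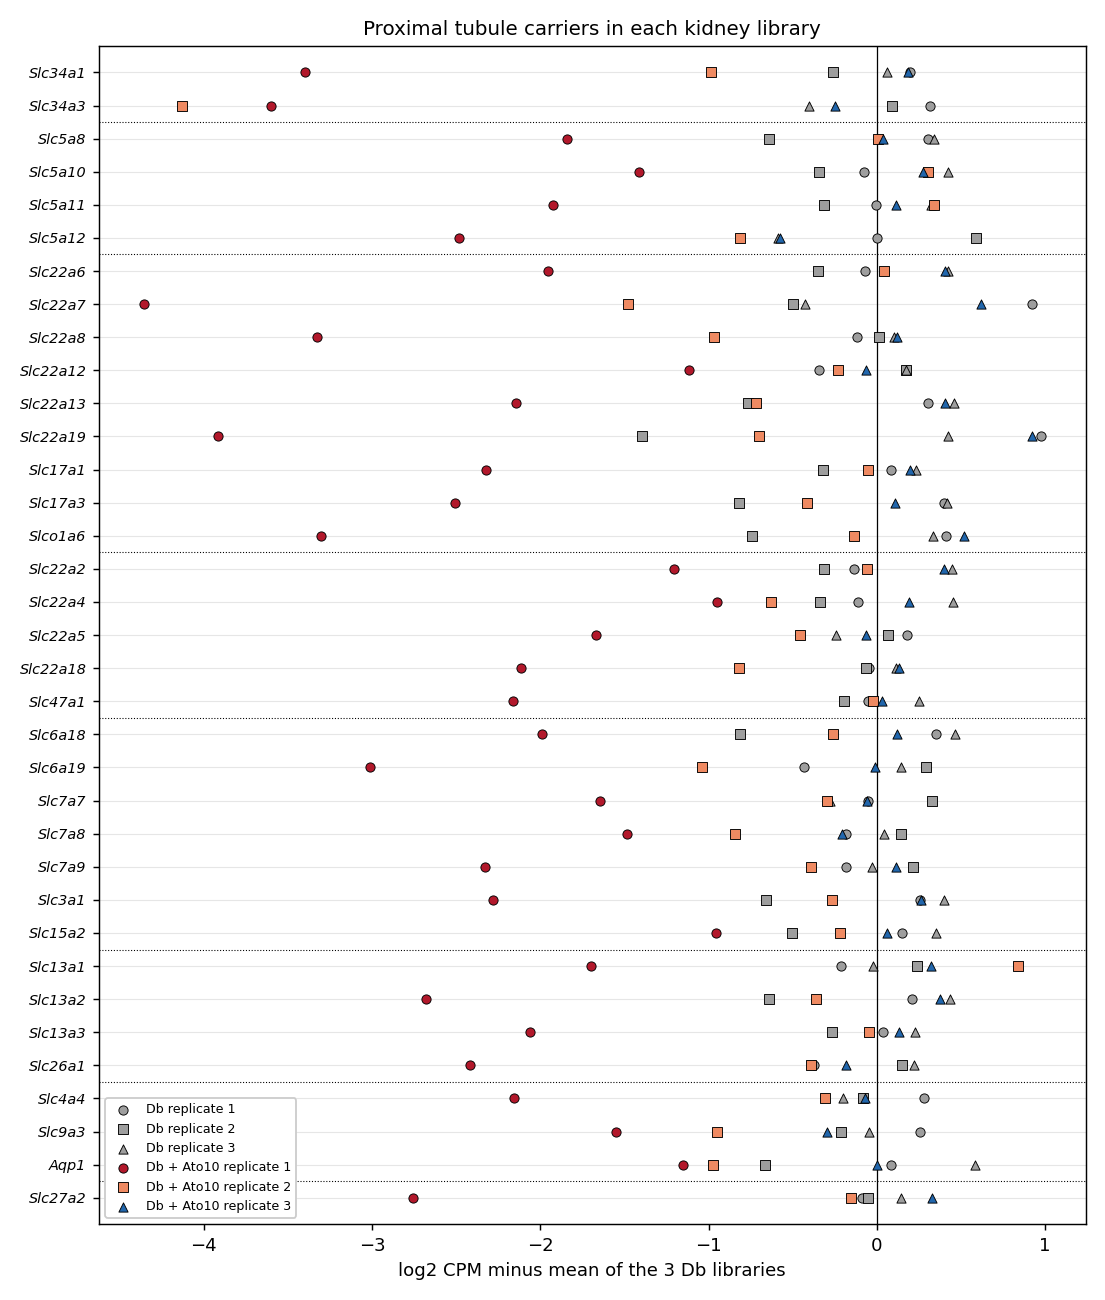
Each row is a carrier that passed the count filter and each point a kidney library, placed by log2 CPM minus the mean of the 3 Db libraries (grey, Db; coloured, Db + Ato10; dotted lines separate the classes described in the text). Points of Db + Ato10 replicate 1 lie left of every Db point in all 35 rows, those of replicate 2 in 17 rows and those of replicate 3 in 2 rows. The shares of all tested genes were 40.9%, 34.2% and 24%.

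The phosphate carriers had the lowest class median, a log2 fold change of -1.23 over 2 genes. Slc34a1 (NCBI Gene 20505), the main sodium-phosphate cotransporter of the brush border and the target of parathyroid hormone, was the most abundant of all 36 genes per transcript length, with a mean of 2143 TPM over the 6 libraries. It stood at 4266, 3110 and 3887 CPM in Db replicates 1 to 3 and at 354, 1877 and 4227 CPM in Db + Ato10 replicates 1 to 3. A pair of Db + Ato10 kidneys thus lay below every Db kidney and the other lay within the Db range. Its log2 fold change was -0.80 (SE 0.79, adjusted p = 0.587 by edgeR), and it ranged from -1.75 to -0.29 when a library was left out. Slc34a3 (NCBI Gene 142681), the second phosphate cotransporter of the same membrane, stood at 64.9, 55.4 and 39.3 CPM in the Db libraries and at 4.15, 2.84 and 43.7 CPM in the Db + Ato10 libraries. For this gene replicate 2 was as low as replicate 1, at 5.33% and 7.80% of the Db mean, and replicate 3 again lay within the Db range. Its log2 fold change was -1.66 (SE 1.00, adjusted p = 0.411 by edgeR), beside -2.80 under limma-voom (adjusted p = 0.373 there). Without Db + Ato10 replicate 3 it was -3.92 (adjusted p = 0.0233), which passed the criteria, and over all fits that left out a library it ran up to -1.15. Slc34a1 in replicate 2 stood at 50.0% of its Db mean, so the gap between both phosphate carriers was widest in that kidney.

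Carriers of bicarbonate, protons and water came next after the phosphate carriers in Db + Ato10 replicate 2, with all 3 genes below every Db library there and in replicate 1. The same held for 34.2% and 40.9% of all genes in replicates 2 and 1. Slc9a3 (NCBI Gene 105243), the sodium-proton exchanger that drives bicarbonate recovery, stood at 231, 166 and 187 CPM in the Db libraries and at 65.9, 99.9 and 157 CPM in the Db + Ato10 libraries. The groups did not overlap. Its log2 fold change was -0.86 (SE 0.33, adjusted p = 0.273 by edgeR), the only carrier with an unadjusted p under 0.05 in that fit. Without Db + Ato10 replicate 3 the value was -1.23 (adjusted p = 0.0451), which passed, and without Db + Ato10 replicate 1 it was -0.59 (adjusted p = 0.400). Aqp1 (NCBI Gene 11826), the water channel of both membranes, was the most abundant of this class per transcript length, at 1046, 621 and 1477 CPM in the Db libraries and 445, 503 and 985 CPM in the Db + Ato10 libraries. Its Db values spread more than those of Slc9a3, and replicate 3 of the Db + Ato10 group lay among them. The log2 fold change of Aqp1 was -0.70 (SE 0.44, adjusted p = 0.425 by edgeR). Slc4a4, the basolateral sodium-bicarbonate cotransporter, had a log2 fold change of -0.61 and stood at 22.2%, 79.9% and 94.3% of its Db mean. The class median of log2 CPM minus the Db mean was -1.55, -0.95 and -0.07 in Db + Ato10 replicates 1 to 3.

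Among the 7 amino acid and peptide carriers, 7 lay below every Db library in Db + Ato10 replicate 1, 4 in replicate 2 and 1 in replicate 3. The shares of all genes were 40.9%, 34.2% and 24%. The class median of the log2 fold change was -0.56. Without Db + Ato10 replicate 1 the median of these carriers was -0.16, the value of Slc6a18. Slc3a1 (NCBI Gene 20532), the heavy subunit of the brush border exchanger for cystine and dibasic amino acids, was the most abundant of them per transcript length, at 729, 386 and 804 CPM in the Db libraries and 125, 507 and 732 CPM in the Db + Ato10 libraries. Only replicate 1 fell outside the Db range of this gene, whose log2 fold change was -0.49 (SE 0.62, adjusted p = 0.676 by edgeR), with -0.04 without that library and -1.01 without Db + Ato10 replicate 3. Its partner Slc7a9, the light subunit of the same exchanger, stood at 19.7%, 75.7% and 108% of its Db mean beside 19.6%, 79.2% and 114% for Slc3a1. Slc7a8 (NCBI Gene 50934), a basolateral exchanger of neutral amino acids, stood at 201, 252 and 235 CPM in the Db libraries and 81.4, 127 and 198 CPM in the Db + Ato10 libraries. The groups did not overlap, by a narrow gap between Db + Ato10 replicate 3 and Db replicate 1 that closed under upper-quartile scaling. Slc7a8 had a log2 fold change of -0.76 (SE 0.32, adjusted p = 0.301 by edgeR), which passed without Db + Ato10 replicate 3 (-1.13, adjusted p = 0.0486). Slc6a19, the main brush border carrier of neutral amino acids, stood at 12.1%, 47.5% and 97.2% of its Db mean, and its relative Slc6a18 at 23.4%, 77.7% and 101%. Slc7a7, the basolateral exit path of dibasic amino acids, stood at 31.4%, 80.1% and 94.7%, and the peptide carrier Slc15a2 at 49.9%, 83.3% and 101%.

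The organic anion carriers, 9 of 10 of them tested, held both the lowest share of a Db mean in Db + Ato10 replicate 1 (Slc22a7) and the highest in replicate 3 (Slc22a19). Their class medians of log2 CPM minus the Db mean were -2.50, -0.41 and 0.40 in Db + Ato10 replicates 1 to 3. The median of their log2 fold changes was -0.52, and -0.14 (the value of Slc22a13) without Db + Ato10 replicate 1. Slc17a1 (NCBI Gene 20504), an apical exporter of urate and other anions, was the most abundant of them per transcript length, at 593, 448 and 657 CPM in the Db libraries and 112, 538 and 639 CPM in the Db + Ato10 libraries. For Slc17a1 the log2 fold change was -0.40 (SE 0.59, adjusted p = 0.722 by edgeR), with 1 of 3 Db + Ato10 libraries outside the Db range. That fold change turned to 0.064 without Db + Ato10 replicate 1 and was -0.70 under limma-voom. Slc22a12 (NCBI Gene 20521), the apical exchanger that takes urate back from the filtrate, had the smallest p of the class. It stood at 508, 724 and 724 CPM in the Db libraries and 297, 548 and 615 CPM in the Db + Ato10 libraries, a log2 fold change of -0.42 (SE 0.32, adjusted p = 0.492 by edgeR). At 45.5% of its Db mean it was the least reduced anion carrier in Db + Ato10 replicate 1.

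The basolateral uptake carriers of organic anions were uneven in Db + Ato10 replicate 2. Slc22a6 and Slc22a8, neighbouring genes for the classic drug and para-aminohippurate carriers, stood at 25.1% and 9.94% of their Db means in replicate 1, at 100% and 51.0% in replicate 2 and at 129% and 108% in replicate 3. Slc22a7, another anion carrier, had the lowest share of any carrier in replicate 1, 4.08%, and stood at 31.9% and 138% in replicates 2 and 3. That low value was 1.98 CPM, above the floor. The Db libraries of Slc22a7 stood at 82.3, 30.7 and 32.2 CPM, so its Db mean leaned on Db replicate 1. Its log2 fold change was -0.79, and -0.16 without that library. Slc22a19 stood at 5.17%, 50.0% and 154%, but its Db libraries themselves ran from 18.8 to 97.8 CPM. The nicotinate and urate exchanger Slc22a13 stood at 21.1%, 56.9% and 124%, and Slc17a3, the neighbour and relative of Slc17a1, at 16.4%, 69.8% and 100%.

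Slco1a1, an organic anion carrier known from male mouse kidney, was not detectable beyond the floor in any library, with 0, 0 and 1 counts in the Db libraries and 2, 2 and 0 in the Db + Ato10 libraries, so no fold is given. Its close relative Slco1a6 was well detected, with a mean of 115 TPM over the 6 libraries and 9.47%, 85.6% and 135% of its Db mean in Db + Ato10 replicates 1 to 3. Reads of such near copies, and of Slc22a19 and its relatives, may have been divided between them in the authors' counting, so the split between them is uncertain.

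Among the 5 organic cation and carnitine carriers the class median of the log2 fold change was -0.44, and all 5 lay below every Db library in Db + Ato10 replicate 1, 3 in replicate 2 and 0 in replicate 3. Without Db + Ato10 replicate 1 the median of these carriers was -0.20, the value of Slc22a4. Slc22a18 (NCBI Gene 18400), a carrier assigned to organic cations, was the most abundant of them per transcript length, at 419, 414 and 469 CPM in the Db libraries and 100, 245 and 474 CPM in the Db + Ato10 libraries. Db + Ato10 replicate 3 lay just above the highest Db library and the other replicates below the lowest. For Slc22a18 the log2 fold change was -0.67 (SE 0.51, adjusted p = 0.494 by edgeR), and it ran from -1.32 to -0.27 with a library left out. Slc22a5 (NCBI Gene 20520), the sodium-dependent carnitine carrier, stood at 397, 366 and 295 CPM in the Db libraries and 110, 255 and 335 CPM in the Db + Ato10 libraries. The log2 fold change was -0.60 (SE 0.40, adjusted p = 0.443 by edgeR), the smallest p of the class.

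Secretion of organic cations runs from Slc22a2 in the basolateral membrane to Slc47a1 in the brush border. Slc22a2 stood at 42.2%, 93.4% and 129% of its Db mean in Db + Ato10 replicates 1 to 3, and Slc47a1 at 22.1%, 97.6% and 101%. For both genes replicates 2 and 3 therefore lay in the Db range. Slc22a4, the ergothioneine carrier, stood at 50.3%, 62.9% and 111% and was the carrier nearest to its Db mean in replicate 1.

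Dicarboxylate and sulfate carriers held the only gene with a positive fitted value. Slc13a1, the sodium-sulfate cotransporter of the brush border, stood at 30.5%, 177% and 124% of its Db mean in Db + Ato10 replicates 1 to 3, low in 1 kidney and above every Db library in the others. Its log2 fold change was 0.15 (adjusted p = 0.901 by edgeR) and turned to -0.17 under limma-voom and to -0.36 without Db + Ato10 replicate 2. Slc13a3 (NCBI Gene 114644), which takes up dicarboxylates from the blood, was by a small margin the most abundant of the class per transcript length, at 966, 784 and 1103 CPM in the Db libraries and 226, 910 and 1030 CPM in the Db + Ato10 libraries. For Slc13a3 the log2 fold change was -0.40 (SE 0.54, adjusted p = 0.697 by edgeR), and replicates 2 and 3 lay within the Db range. That fold change turned to 0.037 without Db + Ato10 replicate 1 and was -0.64 under limma-voom. Slc26a1 (NCBI Gene 231583), the basolateral exchanger of sulfate and oxalate, had the smallest p of the class. It stood at 120, 171 and 181 CPM in the Db libraries and 28.8, 118 and 136 CPM in the Db + Ato10 libraries, a log2 fold change of -0.74 (SE 0.54, adjusted p = 0.477 by edgeR). The citrate carrier Slc13a2 stood at 14.8%, 74.0% and 123% of its Db mean.

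Of the 4 sodium-coupled carriers of monocarboxylates and sugars, 4 lay below every Db library in Db + Ato10 replicate 1 and 1 in replicate 2. The shares of all genes were 40.9% and 34.2%. Slc5a10 (NCBI Gene 109342), a carrier of mannose and fructose, was the most abundant of them per transcript length, at 511, 424 and 723 CPM in the Db libraries and 203, 665 and 652 CPM in the Db + Ato10 libraries. Its log2 fold change was -0.13 (SE 0.47, adjusted p = 0.896 by edgeR) and became 0.26 with Db + Ato10 replicate 1 left out and 0.12 with Db replicate 3 left out. Slc5a12 (NCBI Gene 241612), a low-affinity lactate carrier, stood at 440, 660 and 292 CPM in the Db libraries and 78.4, 250 and 295 CPM in the Db + Ato10 libraries. Slc5a12 had a log2 fold change of -1.16 (SE 0.53, adjusted p = 0.322 by edgeR), although Db + Ato10 replicate 3 lay just above the lowest Db library. Slc5a8, the lactate carrier of higher affinity, stood at 26.6%, 96.1% and 97.9% of its Db mean, and the inositol carrier Slc5a11 at 25.8%, 125% and 106%. Slc5a11 and Slc13a1 were the 2 carriers above every Db library in Db + Ato10 replicate 2.

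Slc27a2 (NCBI Gene 26458), a fatty acid carrier that also activates very long fatty acids, followed the abundant Slc34a1 in level per transcript length, with a mean of 1932 TPM. It stood at 2687, 2748 and 3146 CPM in the Db libraries and 422, 2563 and 3576 CPM in the Db + Ato10 libraries. Replicate 1 was thus at 14.8% of the Db mean, replicate 2 narrowly below the lowest Db library and replicate 3 above the highest. The log2 fold change was -0.39 (SE 0.70, adjusted p = 0.774 by edgeR), and it turned to 0.11 without Db + Ato10 replicate 1.

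Beyond the 36 genes, 22 other carriers of the proximal tubule had a median of -0.45 in the log2 fold change, with 18 lower and 4 higher, and 0 were called. At an unadjusted p under 0.05, edgeR counted 1 lower, the multidrug exporter Abcc4, beside 5.71% of all genes, and 0 higher, beside 11.2%. The groups did not overlap for 4 of the 22 (Slc5a2, Slc2a2, Slc15a1 and Abcc4), all lower, beside 11.3% of all genes. Abcc4 stood at 144, 184 and 190 CPM in the Db libraries and 97.4, 109 and 135 CPM in the Db + Ato10 libraries.

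Pairs of carriers that share a substrate but are known from different stretches of the tubule were compared by the level of the early carrier over that of the later one, and these pairs were picked after their values had been seen. Slc5a2, the glucose carrier of the early tubule, stood at 693, 586 and 518 CPM in the Db libraries and at 92.5, 53.7 and 466 CPM in the Db + Ato10 libraries. Slc5a1, the glucose carrier of the late tubule, stood at 140, 105 and 136 CPM in the Db libraries and at 50.9, 262 and 117 CPM in the Db + Ato10 libraries. Replicate 2 was therefore the lowest of all 6 libraries for the early glucose carrier and the highest for the late one, while replicate 1 was low for both. The ratio of the CPM values was 4.93, 5.57 and 3.80 in the Db libraries and 1.82, 0.205 and 3.98 in the Db + Ato10 libraries. For lactate, the ratio of the early Slc5a12 to the later Slc5a8 was 1.70, 4.90 and 1.10 in the Db libraries and 1.34, 1.18 and 1.37 in the Db + Ato10 libraries, all within the Db range. For neutral amino acids, the ratio of the early Slc6a19 to the later Slc6a18 was 0.299, 1.11 and 0.412 in the Db libraries and 0.254, 0.300 and 0.471 in the Db + Ato10 libraries, with only replicate 1 outside the Db range. The difference within these pairs was not tested.

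Genes for proteins that hold or energize the carriers lay nearer to the Db level in Db + Ato10 replicate 1. The 9 scaffolds and partners had a median of -0.45 in the log2 fold change, with 7 lower and 2 higher, 0 called and 0 at an unadjusted p under 0.05. Their median stood at 57.9% of the Db mean in Db + Ato10 replicate 1, where that of the carriers was 22.2%.

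Of 12 regulators of proximal tubule carriers, 9 were lower and 3 higher, with 0 called. Of these, 1 was lower and 1 higher at an unadjusted p under 0.05, beside 5.71% and 11.2% of all genes. Kl, the co-receptor for the phosphate-lowering hormone FGF23, stood at 1137, 657 and 710 CPM in the Db libraries and 244, 171 and 449 CPM in the Db + Ato10 libraries. The groups did not overlap, with a log2 fold change of -1.53 (adjusted p = 0.239 by edgeR). Cyp27b1, the enzyme that makes active vitamin D, stood at 28.0, 35.4 and 4.36 CPM in the Db libraries and 75.4, 213 and 34.5 CPM in the Db + Ato10 libraries. The Db + Ato10 replicate 3 value lay between those of the Db libraries, and the log2 fold change was 2.25 (adjusted p = 0.286 by edgeR). Pth1r, the parathyroid hormone receptor and the most abundant of the list per transcript length, stood at 523, 480 and 601 CPM in the Db libraries and 257, 286 and 601 CPM in the Db + Ato10 libraries. It too was low in replicates 1 and 2 and at the Db level in replicate 3, with a log2 fold change of -0.49 (adjusted p = 0.477 by edgeR).

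Markers of cell types differed between the same libraries, some in the order of the carriers and some not, and their part in the result was not tested. All 12 proximal tubule markers were lower, with a median log2 fold change of -0.65 and 0 at an unadjusted p under 0.05. All 12 lay below every Db library in Db + Ato10 replicate 1, 10 in replicate 2 and 1 in replicate 3. The shares of all genes were 40.9%, 34.2% and 24%. All 6 markers of injured proximal tubule were higher at an unadjusted p under 0.05, beside 11.2% of all genes. Their adjusted p was 0.239 by edgeR and their median log2 fold change 4.00. Their summed level was 3862, 4588 and 2451 TPM in the Db libraries and 21568, 40400 and 12138 TPM in the Db + Ato10 libraries, with Spp1 the highest by its mean over the 6 libraries and Lcn2 above it in Db + Ato10 replicate 1, and none was at 0 in every library. By its summed level the injury list thus separated all 3 Db + Ato10 kidneys from the Db kidneys, including replicate 3. Gene by gene the groups did not overlap for 5 of 6, all higher, beside 12% of all genes. The exception was Vcam1, at 15.2 CPM in Db + Ato10 replicate 3 and 30.4 CPM in Db replicate 2. Havcr1, the injury marker kidney injury molecule, stood at 1.35, 13.6 and 0.646 CPM in the Db libraries and 115, 274 and 87.9 CPM in the Db + Ato10 libraries.

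Leukocyte markers passed the filter for 7 of 9 genes, while Cd3e and Cd79a did not pass. All 7 were higher at an unadjusted p under 0.05, beside 11.2% of all genes, with a median of 3.15. The 9 markers summed to 450, 686 and 510 TPM in the Db libraries and 6596, 5884 and 591 TPM in the Db + Ato10 libraries. Cd74 had the highest mean over the 6 libraries, while Lyz2 was highest in Db + Ato10 replicate 1. Fibroblast markers were higher for 6 of 6 genes, with a median of 1.80. Of these, 4 were at an unadjusted p under 0.05, beside 11.2% of all genes. The 6 markers summed to 62.9, 72.5 and 67.9 TPM in the Db libraries and 561, 191 and 94.3 TPM in the Db + Ato10 libraries. Dcn had the highest mean over the 6 libraries, though not the highest level in each. Thick ascending limb and distal markers were lower for 7 of 7 genes, with a median of -1.14. Of these, 4 were at an unadjusted p under 0.05, beside 5.71% of all genes. By their median these markers stood at 52.4%, 33.2% and 60.6% of the Db mean in Db + Ato10 replicates 1 to 3. Led by Umod, they summed to 4912, 5708 and 5152 TPM in the Db libraries and 3211, 1588 and 3903 TPM in the Db + Ato10 libraries. By its median that list was lowest in replicate 2 and also below Db in replicate 3, unlike the carriers. Endothelial and podocyte markers had medians of -0.0018 and -0.21 and stood at 142% and 135% of the Db mean in replicate 1 and at 47.7% and 39.6% in replicate 2, so by these medians the kidney with the lowest carrier RNA was not the kidney with the lowest vascular and glomerular RNA. At an unadjusted p under 0.05, edgeR counted 1 of 5 endothelial markers, Kdr, lower, and 0 podocyte markers, beside 5.71% of all genes lower. The groups did not overlap for Kdr, which was lower, beside 11.3% of all genes. It stood at 46.8%, 27.5% and 70.8% of its Db mean in Db + Ato10 replicates 1 to 3. Endothelial markers, led by Plvap, summed to 313, 309 and 336 TPM in the Db libraries and 349, 161 and 339 TPM in the Db + Ato10 libraries, and podocyte markers, led on average by Podxl, to 199, 123 and 124 TPM in the Db libraries and 179, 59.2 and 117 TPM in the Db + Ato10 libraries. None of the genes of these lists was at 0 in every library. The keratins Krt5, Krt14 and Krt15 were higher in all 3 Db + Ato10 libraries, and Upk1b and Upk3a did not pass the filter.

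**Figure D2:**
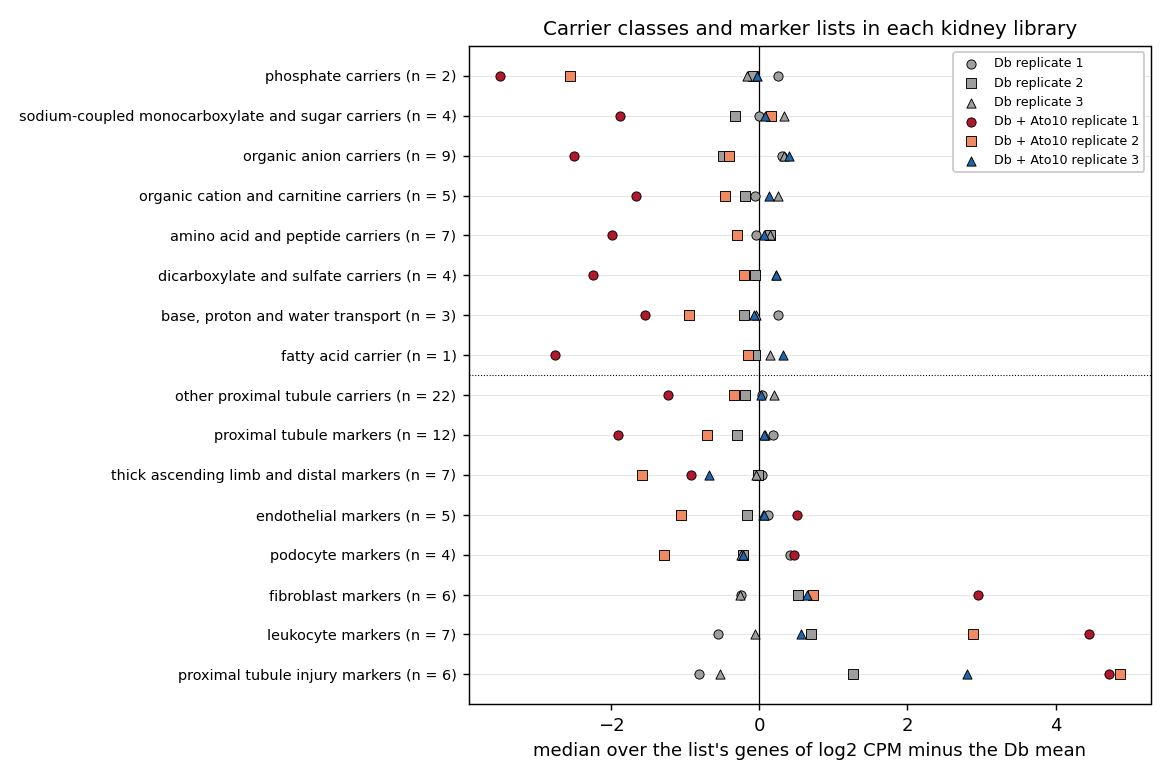
Each row is a carrier class (above the dotted line) or a list of other carriers or cell markers (below it), and each point is the median over its tested genes of log2 CPM minus the Db mean in a kidney library (grey, Db; coloured, Db + Ato10). All 8 carrier classes lie far left in Db + Ato10 replicate 1, phosphate carriers at -2.56 and base, proton and water transport at -0.95 in replicate 2, and injury markers lie to the right in all 3 Db + Ato10 libraries.

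The makeup of carrier transcripts also differed in Db + Ato10 replicate 1. Of the 36 genes, 27 have more than 1 listed transcript. Among 125 tested transcripts of the carriers, 102 were lower and 23 higher, and 0 were called (smallest adjusted p = 0.394 by edgeR over 30175 transcripts, of which 0 were called and 2471 had an unadjusted p under 0.05). The transcript with the largest mean share of its gene's counts was taken as the leading one. In Db + Ato10 replicate 1 its share lay below every Db library for 15 of 27 carriers, beside 32.6% of 9207 genes. In replicates 2 and 3 this held for 9 and 4 of 27, beside 25.9% and 23.2%. The median leading share of the carriers was 72.1%, 64.0% and 68.5% in the Db libraries and 55.9%, 67.8% and 64.2% in the Db + Ato10 libraries, and that of all 9207 genes stayed between 74.3% and 75.3%. The leading transcript of Slc34a1 held 62.6%, 50.9% and 60.0% of its counts in the Db libraries and 29.1%, 56.3% and 56.4% in the Db + Ato10 libraries. That of the carnitine carrier Slc22a5 held 84.9%, 64.0% and 81.1% against 25.4%, 47.6% and 68.5%. The opposite occurred for 8 of 27 carriers in replicate 1, close to the 28.7% of 9207 genes, as in Slc5a12, whose leading share was 44.1%, 50.2% and 54.7% in the Db libraries and 85.0%, 67.8% and 49.6% in the Db + Ato10 libraries. Reads were divided among overlapping transcripts by estimation, so these shares are less certain than gene totals.

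Since the carriers were low together in Db + Ato10 replicate 1, the bases before their start sites were searched for letters bound by HNF4, a factor of the proximal tubule. RefSeq promoters of assembly GRCm38.p6 were found for 31 of the 36 genes, and the 250 bases before each start were read on both strands. CAAAGTCCA or its reverse complement, an element of HNF4 type, was present for 1 of 31 carriers, Slc3a1, beside 0.451% of 27025 genes. The stretch around this match is printed because Slc3a1 is the most abundant of the amino acid carriers per transcript length. It is read 5′ to 3′ on the strand of the gene, with the match in capitals, and the match ends 30 bases before the start of the gene, upstream of the transcribed region.
Slc3a1, chr17:85028298-85028326, plus strand: cttggctggaCAAAGTCCAgccatgatta
A match describes the letters only. The factor gene Hnf4a was named for this motif, after its values had been seen. Hnf4a stood at 873, 710 and 823 CPM in the Db libraries and 203, 459 and 806 CPM in the Db + Ato10 libraries, with a log2 fold change of -0.71 (adjusted p = 0.443 by edgeR). It was lowest in replicate 1, like the carriers.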

How the data were processed

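Kidney RNA of 3 Db and 3 Db + Ato10 mice was compared, with groups and replicate numbers taken from the sample labels. For genes and transcripts the authors deposited expected counts, which are estimated reads without normalization, and 91.3% of the gene values were whole. FPKM values were scaled by the authors to transcript length and depth. TPM values were scaled by the authors to length and to a common total. The submitters' processing notes name HISAT, Bowtie2 2.2.5 and the build mm9; the counter is not given in the sources used here. After rounding to whole numbers, these counts were fitted with edgeR 4.0.16 in R 4.3.3 (TMM, quasi-likelihood test, Benjamini-Hochberg adjustment, no covariates). The standard error is the log2 fold change divided by the root of the F statistic. Log2 CPM used a prior count of 2. Alternatives used DESeq2 1.42.0, limma 3.58.1, other scalings and filters, the replicate number as a block, and each library left out in turn. The scripts were tested on simulated data. Figures were drawn with matplotlib 3.10.9.

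The carriers and all gene lists were chosen with earlier results of these data known, so their counts and medians are descriptions. Every carrier was named, and full statistics were given in each class for the gene with the highest mean TPM, the gene with the smallest p and genes whose groups did not overlap. Of 147 list symbols 146 were in the table, and Xist was not analysed here. Slc7a13 is in both the list of other carriers and that of male-higher genes. Many list genes entered the counts, medians and sums without being reported here by name.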

Additional observations from a re-analysis of the deposited data

How the results depend on the processing

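The number of carriers called was 0 in the fit reported and under DESeq2, limma-voom, upper-quartile normalization, both other count filters, the replicate block and limma on FPKM with either pseudocount, and it ranged from 0 to 3 when each library was left out. Carriers lower at an unadjusted p under 0.05 numbered 1 in the fit reported, 3 under DESeq2, limma-voom and limma on log2(FPKM + 1) or log2(FPKM + 0.1), 2 with no filter beyond 1 count, and from 0 to 12 with a library left out (12, beside 13.1% of all genes, without Db + Ato10 replicate 3). Higher carriers at that level ranged from 0 to 1 (Slc13a1 without Db + Ato10 replicate 1). Carriers whose groups did not overlap numbered 2 in the fit reported, 1 under upper-quartile normalization (Slc9a3), 3 on the deposited FPKM (Slc5a12 added), and from 2 to 17 with a library left out (17, beside 24.9% of all genes, without Db + Ato10 replicate 3), an alternative chosen after seeing the data. Fewer libraries make such a separation easier, so these counts are not directly comparable. The median over the carriers ranged from -1.01 to -0.16 with a library left out.

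Class medians that changed direction with a library left out were those of the dicarboxylate and sulfate carriers (-0.92 to 0.012), the fatty acid carrier (-0.93 to 0.11) and the monocarboxylate and sugar carriers (-0.63 to 0.091). Single carriers that did so were Slc13a1 (-0.36 to 0.60), Slc13a3 (-0.74 to 0.037), Slc17a1 (-0.80 to 0.064), Slc22a19 (-1.85 to 0.030), Slc22a2 (-0.56 to 0.16), Slc22a6 (-0.67 to 0.21), Slc27a2 (-0.93 to 0.11), Slc47a1 (-0.74 to 0.0019), Slc5a10 (-0.36 to 0.26), Slc5a11 (-0.59 to 0.22) and Slco1a6 (-1.07 to 0.15). Slc13a1 was also negative under limma-voom (-0.17) and limma on log2(FPKM + 1) (-0.16) or log2(FPKM + 0.1) (-0.16), and the cause was not tested. Other ranges with a library left out were -1.14 to -0.37 for Aqp1, -0.62 to -0.16 for Slc22a12, -0.95 to -0.25 for Slc22a5, -1.10 to -0.30 for Slc26a1, -1.49 to -0.76 for Slc5a12 and -1.13 to -0.49 for Slc7a8. With all libraries kept, limma-voom, the replicate block and limma on FPKM gave values further from 0 for several carriers, down to -2.80 for Slc34a3, -1.36 for Slc34a1, -0.84 for Slc27a2, -0.70 for Slc17a1, -0.64 for Slc13a3 and -0.27 for Slc5a10.

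Replicate numbers are shared by the groups. The correlations of same-numbered deviations were -0.151, 0.0613 and 0.208, and those of differently numbered ones ran from -0.374 to 0.311. With 3 libraries per group, these correlations cannot show whether the numbers pair the mice. With the replicate block, 0 carriers were called, 2 were lower at an unadjusted p under 0.05 (Slc9a3 and Slc7a8), the median over the carriers was -0.78, and Slc13a1 had a value of -0.16.

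Of the 36 carriers, only Slco1a1 lay below the floor of detection, with at most 2 counts in a library. Whether depth was the reason was not tested.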
